A study of Mus musculus with 12 samples.

Results

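Nkx2-5, Isl1 and the Mef2 family are transcription factors of the early heart, and their transcript levels were read here in mouse embryonic stem cell progenitors sorted on 2 fluorescent reporters. The genes were taken by symbol (Nkx2-5, Isl1, Mef2a, Mef2c and Mef2d) from probe sets annotated to 1 gene. This gave 5 genes with 17 probe sets, of 18193 genes with 34945 such probe sets on the array. For each gene the probe set with the greatest mean intensity on the 12 arrays is described first. Nkx2-5 had 1 probe set, Isl1 had 2, Mef2d 3, Mef2c 5 and Mef2a 6, and all 17 passed the filter on low values.

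The samples were 12 single-colour Affymetrix arrays, 3 for each of 4 populations sorted on day 6 from embryoid bodies, which are aggregates of differentiating stem cells grown in hanging drops. Per the labels, all cells came from a line carrying a red reporter (dsRed) specific to the second heart field, whose progenitors build the outflow tract and right ventricle. A second reporter, green (eGFP), was under an enhancer specific to cardiac cells. The populations were double-positive (Red+/Green+), red-only (Red+/Green-), green-only (Red-/Green+) and double-negative (Red-/Green-) cells, with 1 array of each in every experiment (A, B and C). Whether these letters mark separate cultures is not stated, so the p-values measure the spread between these arrays, which may be technical, and 3 arrays per population limit the precision.

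Nkx2-5 is a homeodomain protein of the NK2 class that marks cardiac progenitors and is needed for heart tube development. Isl1 is a LIM-homeodomain protein that marks second heart field progenitors and is lost as they become heart muscle, and it is also known in motor neurons. The Mef2 proteins are MADS-box factors that activate muscle genes and are held in check by class IIa histone deacetylases until calcium-dependent kinases release them. Mef2c is the member needed earliest in heart development, while Mef2a and Mef2d are expressed more broadly.

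The labels do not name the enhancers. In the published two-reporter system of this design, known here as background, the red reporter is driven by an enhancer of Mef2c and the green reporter by an enhancer of Nkx2-5. The sort therefore selects on regulatory activity tied to these genes, and for Mef2c and Nkx2-5 the effect of the sort and the level of the transcript cannot be told apart. No enhancer of Isl1, Mef2a or Mef2d drives a reporter in that system. Whether the sort selects on these genes in other ways was not tested, so their levels are not taken as independent of it.

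The 250 bases before the start sites of Nkx2-5 and Mef2c are shown because these genes were the ones with the widest range over the populations. The sequences are RefSeq's for build GRCm38.p6, written 5′ to 3′ on the strand of the gene. Nkx2-5 lies on the minus strand (chr17:26841566-26841815), and the 3 annotated Mef2c starts lie on the plus strand (chr13:83503784-83504033, chr13:83523406-83523655 and chr13:83573357-83573606). Capitals mark AAGTG, the core of the NK2-class site, and GATA, the core of the GATA-factor site, on either strand.
Nkx2-5: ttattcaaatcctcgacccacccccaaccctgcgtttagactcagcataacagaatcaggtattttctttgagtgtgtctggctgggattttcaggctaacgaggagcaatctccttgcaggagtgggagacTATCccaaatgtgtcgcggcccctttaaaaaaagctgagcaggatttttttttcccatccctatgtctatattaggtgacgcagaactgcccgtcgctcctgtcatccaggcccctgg
Mef2c start 1: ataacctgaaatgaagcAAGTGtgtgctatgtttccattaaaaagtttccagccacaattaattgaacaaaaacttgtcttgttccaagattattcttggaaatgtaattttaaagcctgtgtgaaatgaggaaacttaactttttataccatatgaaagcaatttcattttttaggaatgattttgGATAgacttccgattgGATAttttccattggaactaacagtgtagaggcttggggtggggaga
Mef2c start 2: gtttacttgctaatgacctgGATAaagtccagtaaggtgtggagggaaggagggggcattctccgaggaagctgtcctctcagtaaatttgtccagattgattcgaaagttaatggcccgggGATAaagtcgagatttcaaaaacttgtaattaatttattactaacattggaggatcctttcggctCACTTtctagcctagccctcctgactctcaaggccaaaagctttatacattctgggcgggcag
Mef2c start 3: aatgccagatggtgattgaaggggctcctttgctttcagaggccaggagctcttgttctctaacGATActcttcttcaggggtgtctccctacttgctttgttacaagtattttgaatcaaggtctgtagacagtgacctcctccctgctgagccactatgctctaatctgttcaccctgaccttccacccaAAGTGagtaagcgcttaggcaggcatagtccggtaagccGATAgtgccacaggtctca
All 5 genes matched the promoter table, with 7 windows. AAGTG was found once in each of the 3 Mef2c windows and in none of the other 4, and 40.7% of all 32851 windows of this length held it. GATA was found in 5 of the 7 windows, against 53.6% of all windows, with 1 match for Nkx2-5 and Isl1, 2 in each Mef2c window and none for Mef2a or Mef2d. TAAT, the core of many homeodomain sites, was in 5 of 7 windows against 54.9% of all, and can overlap GATA where the letters GATAAT occur, as they do in the Isl1 window. Neither the MEF2 consensus nor the CArG box (each 10 letters, both strands) matched in any of the 7 windows, against 2.92% and 1.47% of all windows. A match is only a description of these letters.

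By their main probe sets, all 5 genes were higher wherever a reporter was on than in double-negative cells, but by very different amounts. Mef2c and Nkx2-5 stood highest in double-positive cells, lower in both single-reporter populations and lowest in double-negative cells. Isl1 was not highest in double-positive cells, and Mef2a and Mef2d differed much less between populations than Mef2c. Values below are probe set intensities in linear units. Differences and their standard errors (SE) are on the scale log2(intensity + 4.10), which understates changes of low probe sets, and adjusted p-values are from limma with Benjamini-Hochberg adjustment over 13698 genes. Levels of different probe sets are not comparable with each other.

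**Figure D1:**
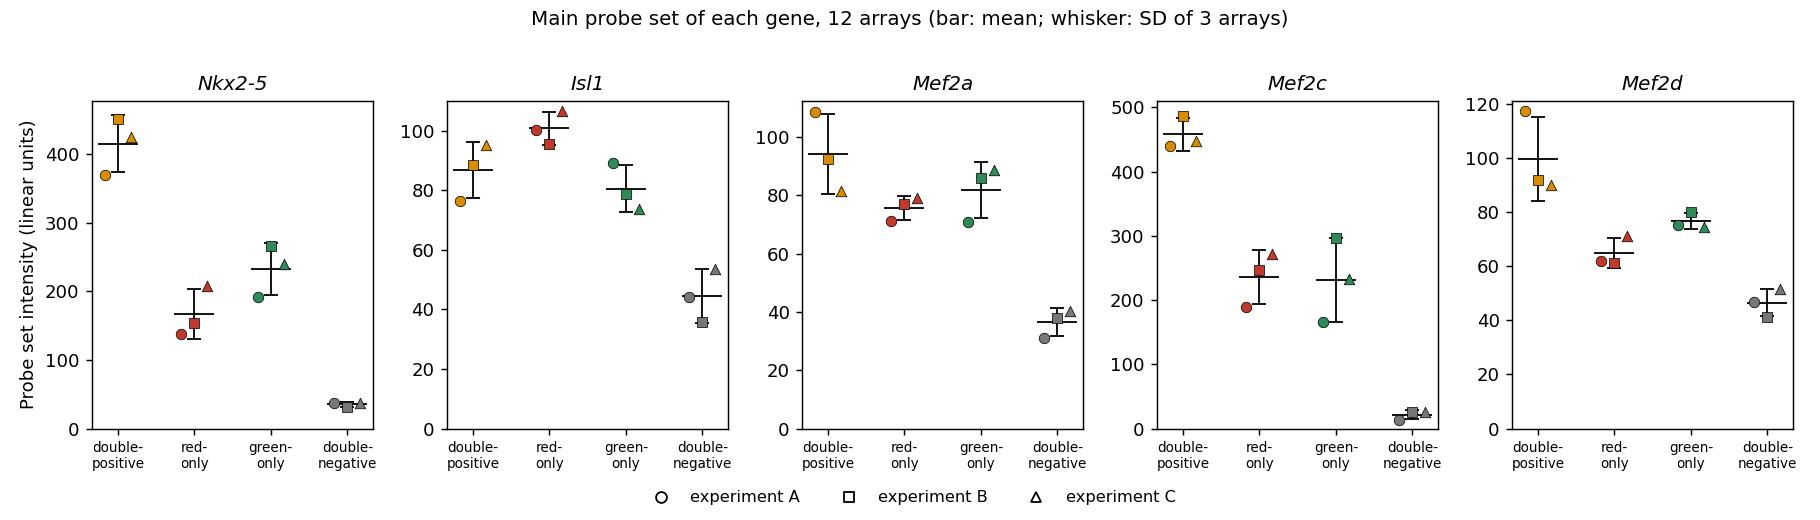
Probe set intensity (linear units) of Nkx2-5, Isl1, Mef2a, Mef2c and Mef2d on the 12 arrays, by population, with a marker for each experiment, a horizontal bar for the mean and a whisker for the SD of 3 arrays. The double-positive arrays of Nkx2-5 (369.7 to 452) and Mef2c (439 to 487) lie above all others, whereas for Isl1 the red-only arrays (95.3 to 107) are the highest.

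Nkx2-5 (probe set 1449566_at) measured 369.7, 452 and 425 in the double-positive cells of experiments A, B and C. It measured 138, 154 and 207 in red-only cells, and 191, 266 and 239.9 in green-only cells. In double-negative cells it measured 37.9, 31.6 and 37.0. Every double-positive array was above every single-reporter array, every single-reporter array was above every double-negative array, and red-only and green-only arrays overlapped. The means were 415 ± 41.7 in double-positive, 166 ± 36.4 in red-only, 232 ± 37.9 in green-only cells, with 35.5 ± 3.45 in double-negative cells (SD, n = 3 each). Against double-negative cells the difference was 3.40 in double-positive cells (SE 0.15, 10.6-fold with 4.10 added to each intensity, adjusted p = 8.3e-09), 2.09 in red-only cells (adjusted p = 1.42e-06) and 2.57 in green-only cells (adjusted p = 1.84e-07). It ranked 48 of 13698 genes by increase in double-positive over double-negative cells. Nkx2-5 was thus above its double-negative level in red-only cells as well, which were sorted for absence of the green reporter.

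Isl1 (1422720_at) measured 76.5, 88.6 and 95.1 in double-positive cells. It measured 100.3, 95.3 and 107 in red-only cells, and 89.2, 78.6 and 73.7 in green-only cells. In double-negative cells it measured 44.3, 35.7 and 53.6. The red-only arrays were the highest and did not overlap any other population, the double-positive and green-only arrays overlapped each other, and all 9 reporter-positive arrays were above the double-negative ones. The means were 86.7 ± 9.46 in double-positive, 101 ± 5.60 in red-only, 80.5 ± 7.94 in green-only cells, with 44.5 ± 8.99 in double-negative cells (SD, n = 3 each). The difference from double-negative cells was 0.91 in double-positive cells (SE 0.13, adjusted p = 0.000115), 1.12 in red-only cells (adjusted p = 4.56e-05) and 0.81 in green-only cells (adjusted p = 0.00057).

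Mef2c (1421027_a_at) measured 439, 487 and 447 in double-positive cells. It measured 189, 246 and 271 in red-only cells, and 166, 296 and 232 in green-only cells. In double-negative cells it measured 13.9, 25.2 and 25.7. The double-positive arrays were all above the single-reporter arrays, the single-reporter arrays overlapped each other, and the double-negative arrays were far below. The means were 458 ± 25.5 in double-positive, 236 ± 41.9 in red-only, 231 ± 65.4 in green-only cells, with 21.6 ± 6.68 in double-negative cells (SD, n = 3 each). Against double-negative cells the difference was 4.20 in double-positive cells (SE 0.22, 18.4-fold with 4.10 added, adjusted p = 2.14e-08), 3.24 in red-only cells (adjusted p = 8.4e-07) and 3.19 in green-only cells (adjusted p = 5.75e-07). Its increase ranked 26 of 13698 genes in double-positive cells, 5 in red-only cells and 23 in green-only cells. Mef2c was thus higher in green-only cells too, which were sorted for absence of the red reporter.

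Mef2a (1427185_at) measured 108.7, 92.7 and 81.4 in double-positive cells. It measured 71.2, 77.1 and 79.1 in red-only cells, and 70.9, 86.0 and 88.6 in green-only cells. In double-negative cells it measured 31.1, 38.0 and 40.3. All 9 reporter-positive arrays were above the double-negative ones, and the green-only arrays overlapped those of both other reporter-positive populations. The means were 94.3 ± 13.7 in double-positive, 75.8 ± 4.06 in red-only, 81.8 ± 9.53 in green-only cells, with 36.5 ± 4.80 in double-negative cells (SD, n = 3 each). Against double-negative cells it was higher by 1.28 in double-positive cells (SE 0.12, adjusted p = 4.45e-06), 0.98 in red-only cells (adjusted p = 8.33e-05) and 1.08 in green-only cells (adjusted p = 4.01e-05).

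Mef2d (1434487_at) measured 117, 91.8 and 89.9 in double-positive cells. It measured 62.0, 61.3 and 71.2 in red-only cells, and 75.2, 80.0 and 74.6 in green-only cells. In double-negative cells it measured 46.8, 41.4 and 51.6. The 4 populations did not overlap, with double-positive cells highest, then green-only, then red-only and then double-negative cells. The means were 99.7 ± 15.4 in double-positive, 64.8 ± 5.51 in red-only, 76.6 ± 2.95 in green-only cells, with 46.6 ± 5.07 in double-negative cells (SD, n = 3 each). Against double-negative cells it was higher by 1.03 in double-positive cells (SE 0.11, adjusted p = 1.18e-05), 0.44 in red-only cells (adjusted p = 0.00917) and 0.67 in green-only cells (adjusted p = 0.000713).

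Against double-negative cells, 5 of 5 genes were called higher in each reporter-positive population. The threshold was an adjusted p of 0.05, two-sided, at which 13.9% of the genes tested were higher (and 17.6% lower) in double-positive cells, 10.9% higher in red-only cells and 9.34% higher in green-only cells. The arrays of all 5 genes did not overlap with the double-negative ones in any of the 3 comparisons, as was the case for 44.6% of the genes tested with double-positive cells, 37.9% with red-only cells and 32.6% with green-only cells. Of all genes tested, 750 were higher in all 3 populations (5.48%). These 3 comparisons share the double-negative arrays, so they are not independent of each other. Each of the 5 genes also differed among the 4 populations in limma's F-test (adjusted p from 4.87e-08 for Nkx2-5 to 9.6e-05 for Isl1), as did 32.3% of the genes tested. The members were proposed with results of these data known, and nothing is read from their number.

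Among the reporter-positive populations every gene except Isl1 had its highest mean with both reporters, but not all of these differences passed the threshold. Double-positive over red-only cells gave 3 calls of 5, with Nkx2-5 higher by 1.31 (SE 0.15, adjusted p = 8.5e-05), Mef2c by 0.96 (SE 0.22, adjusted p = 0.0111) and Mef2d by 0.58 (SE 0.11, adjusted p = 0.00338), where 5.94% of genes tested were called higher. For Mef2d, 1 of its 3 probe sets was called here, the main one. Isl1 differed by -0.21 (95% interval -0.48 to 0.06, adjusted p = 0.357) and Mef2a by 0.29 (0.03 to 0.55, adjusted p = 0.149). The arrays of all 5 genes did not overlap, as was so for 31.1% of the genes tested, but those of Isl1 lay close, the highest double-positive array being at 95.1 and the lowest red-only array at 95.3. The call of Mef2c was lost with the experiment A red-only array left out (0.81, adjusted p = 0.0556), and also with all 4 arrays of experiment B (0.95, adjusted p = 0.089) or of experiment C (1.08, adjusted p = 0.0853) left out.

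Double-positive over green-only cells gave 2 calls of 5, where 2.85% of the genes tested were called higher. Nkx2-5 was higher by 0.83 (SE 0.15, adjusted p = 0.00707) and Mef2c by 1.01 (SE 0.22, adjusted p = 0.0176). Mef2d differed by 0.35 (0.12 to 0.59, adjusted p = 0.0808), Mef2a by 0.19 (-0.07 to 0.45, adjusted p = 0.467) and Isl1 by 0.10 (-0.17 to 0.38, adjusted p = 0.776). Without the double-positive array of experiment A the Mef2c difference was 1.04 (adjusted p = 0.0545), and without that of experiment B it was 0.96 (adjusted p = 0.062). Without all 4 arrays of experiment B or C, 0 of the 5 genes were called in limma's test, Nkx2-5 being at 0.87 (adjusted p = 0.0712) and 0.85 (adjusted p = 0.0654), and Mef2c at 1.16 (adjusted p = 0.08) and 1.05 (adjusted p = 0.158). The arrays of 3 of the 5 genes did not overlap, against 22.4% of the genes tested. The number of genes called in either direction was 771 (5.63%), or 357 and 473 without those 2 arrays, and 1283 with the experiment as a block.

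Red-only and green-only cells, each with 1 reporter on, gave 0 calls of 5 in limma's test. Of the genes tested, 3.09% were called in either direction. At an unadjusted p of 0.05, 2 of 5 passed, against 15% of the genes tested, and the arrays of 2 of 5 did not overlap, against 18% of the genes tested. Nkx2-5 differed by -0.48 in red-only over green-only cells (95% interval -0.81 to -0.15, adjusted p = 0.126) and Isl1 by 0.31 (0.04 to 0.59, adjusted p = 0.256). Mef2c differed by 0.05 (-0.42 to 0.52, adjusted p = 0.958), Mef2a by -0.10 (-0.36 to 0.16, adjusted p = 0.785) and Mef2d by -0.23 (-0.46 to 0.01, adjusted p = 0.349). The Nkx2-5 difference passed the threshold when 1 array was left out, at -0.61 (adjusted p = 0.0432) without the green-only array of experiment A and -0.64 (adjusted p = 0.0338) without the red-only array of experiment C. The sign for Mef2c turned without the same arrays, to -0.17 and -0.06. All genes called numbered 423 here, 211 and 204 without the red-only arrays of experiments A and B, and 787 with the experiment as a block.

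**Figure D2:**
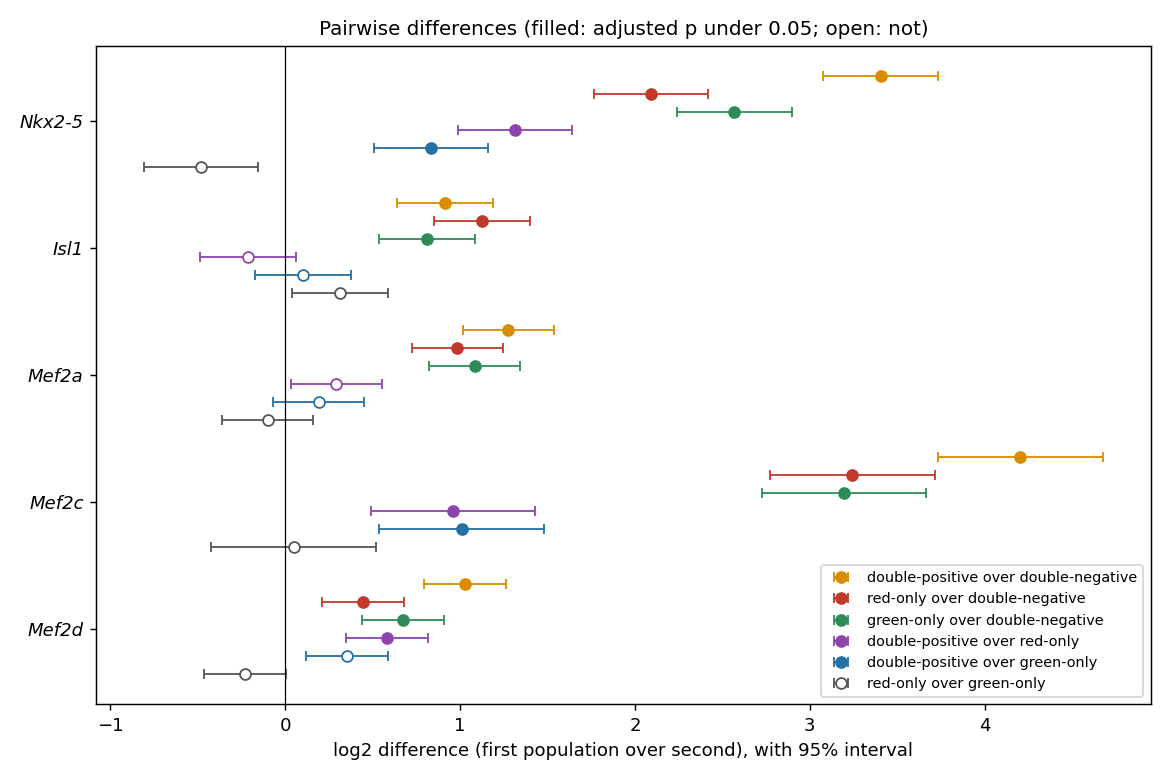
Log2 differences with 95% intervals for the 5 genes in the 6 pairwise comparisons, the first-named population over the second, filled where the adjusted p is under 0.05 and open where it is not. The 3 comparisons with double-negative cells are to the right of 0 for every gene, from 0.44 for Mef2d in red-only cells to 4.20 for Mef2c in double-positive cells, and red-only over green-only is open throughout.

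The other probe sets of Isl1 and Mef2c passed in the same comparisons with double-negative cells as the main ones, and those of Mef2a and Mef2d did so in part. The second Isl1 probe set (1450723_at) measured 79.6, 76.5 and 82.6 in double-positive, 104, 97.2 and 119 in red-only, 94.0, 59.5 and 67.8 in green-only and 33.1, 36.5 and 59.9 in double-negative cells. Its double-negative array of experiment C lay above 1 green-only array, and red-only arrays were again the highest. In a fit of 23232 probe sets, each on its own, it was called higher against double-negative cells with both reporters (0.87, adjusted p = 0.0035), with red alone (1.27) and with green alone (0.74).

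For Mef2c, 5 of 5 probe sets were called higher in each reporter-positive population against double-negative cells and in double-positive cells against each single-reporter population. With no filter on low values, 3 of the 5 were not called in double-positive over green-only cells (1421028_a_at and 1424852_at at adjusted p = 0.0681, and 1451506_at at adjusted p = 0.0965). Their differences ran from 2.12 (1451506_at) to 4.20 in double-positive over double-negative cells, and from -0.10 to 0.05, with none called, in red-only over green-only cells. For Mef2a, 5 of 6 probe sets were called higher with both reporters on, 3 with red alone and 4 with green alone, each over double-negative cells. The probe set 1452347_at was close to the main one at 1.23, the low-intensity sets 1427186_a_at, 1421252_a_at and 1425426_a_at gave 0.97, 0.67 and 0.23, and 1442623_at, with a mean of 8.09, gave -0.04 (adjusted p = 0.832). For Mef2d, 1437300_at gave 0.31 (adjusted p = 0.0108) and 1421388_at gave 0.15 (adjusted p = 0.338) in double-positive over double-negative cells, beside 1.03 for the main probe set. In red-only and in green-only over double-negative cells 1 of the 3 Mef2d sets was called, the main one. The same held in double-positive over red-only cells, where 1437300_at gave 0.11 (adjusted p = 0.481) and 1421388_at gave 0.15 (adjusted p = 0.463). On 1437300_at the double-positive arrays (43.3 to 45.9) overlapped the red-only arrays (37.5 to 45.8), unlike on the main set.

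**Figure D3:**
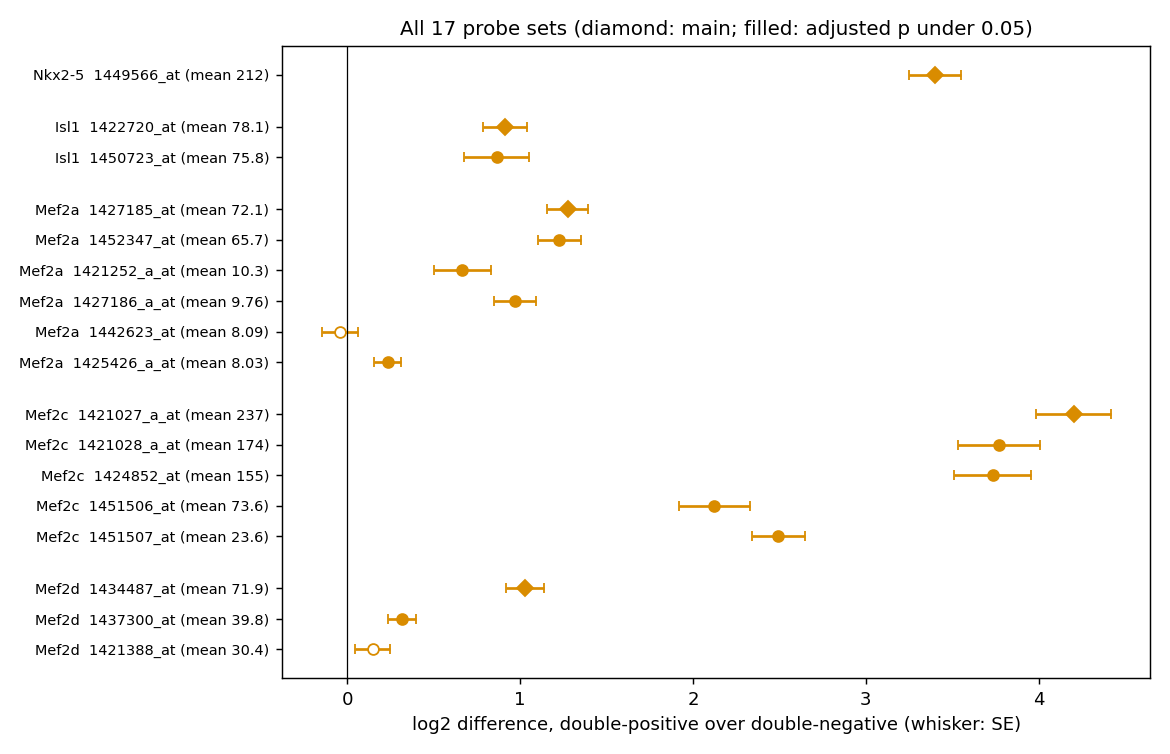
Log2 difference of double-positive over double-negative cells for each of the 17 probe sets, with SE as whiskers and the mean intensity over 12 arrays in brackets; diamonds are the main probe sets, and filled symbols passed an adjusted p of 0.05 in the fit of single probe sets. All Mef2c sets lie between 2.12 and 4.20, while Mef2a and Mef2d each have 1 set that did not pass.

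The reporters form a layout of 2 by 2, which allows a test of whether the difference with both reporters equals the sum of the differences with each alone. On the log2 scale this interaction (double-positive minus red-only minus green-only plus double-negative) was called below 0 for 4 of 5 genes, where 5.67% of genes tested were called lower. It was -2.23 for Mef2c (SE 0.31, adjusted p = 0.000706), -1.25 for Nkx2-5 (SE 0.21, adjusted p = 0.00265), -1.02 for Isl1 (SE 0.18, adjusted p = 0.00315) and -0.79 for Mef2a (SE 0.17, adjusted p = 0.00987). For Mef2d it was -0.09 (95% interval -0.42 to 0.24, adjusted p = 0.804). Over all probe sets, the interaction was called in 3 of 5 of Mef2c, 2 of 2 of Isl1 and 2 of 6 of Mef2a, and it was smaller in the uncalled Mef2c sets 1451506_at (-0.53, adjusted p = 0.333) and 1451507_at (-0.59, adjusted p = 0.122). Without the 4 arrays of experiment B the calls of Nkx2-5 (adjusted p = 0.0725), Isl1 (adjusted p = 0.0627) and Mef2a (adjusted p = 0.171) were lost. Without those of experiment C the calls of Nkx2-5 (adjusted p = 0.0569) and Mef2a (adjusted p = 0.121) were lost.

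The answer depends on the scale for some genes. In linear units, the measured double-positive means were 458 for Mef2c and 415 for Nkx2-5, while adding the 2 single-reporter increases to the double-negative level would give 445 for Mef2c and 363 for Nkx2-5. A level made by multiplying the single-reporter folds, taken with 4.10 added to each intensity, would be 2167 for Mef2c and 993 for Nkx2-5. The measured mean was thus close to the sum for Mef2c, with an excess of 12.2 ± 74.4, and above it by 52.0 ± 33.6 for Nkx2-5 (SD of 3 experiments, adjusted p = 0.904 and 0.394 in limma on linear intensities). Isl1 at 86.7 was below both the sum (137) and the product (180), with a linear difference of -50.0 ± 18.7 that was below 0 in 3 of 3 experiments (adjusted p = 0.0051). Mef2a at 94.3 was below a sum of 121 by 26.9 ± 22.3 (adjusted p = 0.103), and Mef2d at 99.7 had a sum of 94.8 and a product of 106.

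**Figure D4:**
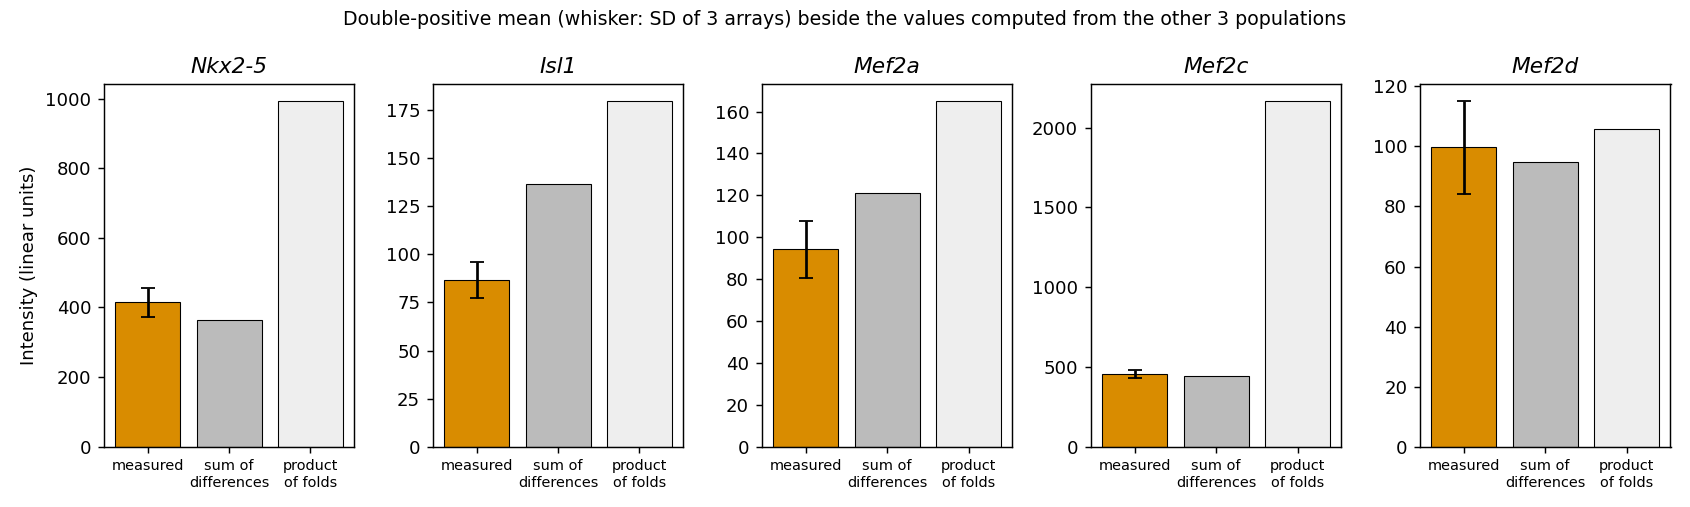
Mean double-positive intensity (linear units, whisker SD of 3 arrays) beside the level computed by adding the single-reporter differences and by multiplying the single-reporter folds (with 4.10 added to each intensity), for each gene. Mef2c (458 against 445) is near the sum and far under the product of 2167, and Isl1 (86.7) is under both.

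The members differed in which other genes had the nearest profile over the 12 arrays, measured as the root mean square (RMS) difference of centred log2 values. The values were not scaled, so the measure reflects the size of the differences between populations as well as their shape. Genes with small differences can lie close whatever their shape, and distances of different members are not comparable as likeness of pattern. Between members, Mef2a and Mef2d were closest (0.23), followed by Isl1 and Mef2a (0.30), Isl1 and Mef2d (0.35), and Nkx2-5 and Mef2c (0.48). Nkx2-5 was nearest to Rbm24, an RNA-binding splicing factor of muscle (0.18), then to Cdkn1c, Smarcd3, Ppp1r14c and Thbs4. Mef2c was nearest to Cdkn1c, a cyclin-dependent kinase inhibitor (0.32), then to Rbm24 and Smarcd3, a cardiac subunit of the SWI/SNF chromatin remodelling complex. Mpped2 and Myocd, a coactivator of serum response factor (0.39), came next. Rbm24 itself averaged 490 in double-positive, 230 in red-only, 272 in green-only cells, with 37.8 in double-negative cells.

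Isl1 was nearest to Frmd6 (0.12), Akt1, Smurf1, Maged1 and Farp1, all of which had their highest mean in red-only cells. Akt1, a kinase of growth factor signalling, averaged 133 in double-positive, 147 in red-only, 118 in green-only cells, with 71.3 in double-negative cells. Mef2a was nearest to Ugp2 (0.13), Fam8a1, Nab1, Sipa1l2 and Tmem65, and Mef2d to Myo18a (0.09), Cdip1, Kcng2, Narf and Pkig. The measure rests on 12 arrays from 4 populations and carries no test.

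Close relatives of the members were not called higher with them. Of 4 NK2-class genes tested of 8 listed, 0 were called higher and 3 lower in double-positive over double-negative cells. These were Nkx2-3 (-0.59), Nkx2-9 (-0.34) and Nkx2-6 (-0.29), and the median of the 4 was -0.31 against -0.01 for all genes tested. Without the double-positive array of experiment A only Nkx2-3 was called, Nkx2-9 being at -0.30 (adjusted p = 0.0504) and Nkx2-6 at -0.25 (adjusted p = 0.0971). The Nkx2-6 call was also lost without double-positive array B or double-negative array B or C (adjusted p = 0.0582, 0.0796 and 0.0835). Of 8 LIM-homeobox relatives of Isl1 tested of 11 listed, 0 were higher and 1 lower. All 8 were low, with no value above 22.6 on any array, so signal over background is unknown for them. The lower one was Lhx2 at -0.72 (adjusted p = 0.0365), averaging 4.55 in double-positive and 11.4 ± 8.10 in double-negative cells (SD). This call was lost when 1 double-positive array was left out, whichever it was (-0.74 to -0.71, adjusted p = 0.0739 for A, 0.0855 for B and 0.0875 for C). Mef2b, the fourth Mef2 gene, measured 7.48 in double-positive and 10.6 in double-negative cells on average (-0.33, adjusted p = 0.052). It was called lower without the double-negative array of experiment B (-0.40, adjusted p = 0.0416) or C (-0.41, adjusted p = 0.0304), or without red-only array B (-0.33, adjusted p = 0.0428). Its double-negative arrays were low and uneven, from 8.79 to 13.9 with a median of 9.10. Over the 12 fits with 1 array left out, its difference ran from -0.41 to -0.17.

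Cofactors of the members gave mixed directions. Of 9 LIM-domain binding cofactors, 3 were higher and 1 lower in double-positive over double-negative cells (median -0.11). Lmo2, a LIM-only adaptor also known in blood and endothelium, was higher by 1.56, Ssbp2 by 1.13 and Ssbp4 by 0.67, and Ssbp3 was lower at -0.71. In red-only cells 5 of the 9 were higher and 0 lower (median 0.37), including Ldb1, the LIM-domain binding protein that joins such factors in complexes, at 0.50 (adjusted p = 0.00263).

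Of 5 repressors of Mef2 proteins, 2 were higher and 0 lower in double-positive cells, with a median of 0.03, and Hdac4 (-0.33) was called lower when the green-only array of experiment B was left out (adjusted p = 0.0352). Hdac9 was higher by 1.33 (18.1 ± 11.6 in double-positive against 4.06 ± 0.51 in double-negative cells, SD, adjusted p = 0.000865). Its double-positive arrays thus varied widely. Hdac5 was higher by 0.88 (97.5 ± 14.4 against 51.9 ± 13.4, adjusted p = 0.00143). Hdac9 is a class IIa deacetylase that binds Mef2 proteins. Of 12 activating kinases, phosphatase subunits and coactivators, 3 were higher and 1 lower (median 0.07). Those higher were Ppp3ca, the calcineurin catalytic subunit (0.81), Prkd1, a kinase of class IIa deacetylases (0.68), and Camk2g (0.68), and Carm1, a methyltransferase coactivator, was lower at -0.50.

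Reported targets of the members were mostly higher in double-positive cells, with double-negative cells as the base. Of 13 Mef2 targets tested, 10 were higher and 0 lower, with a median of 2.30, led by Myh6, the alpha-myosin heavy chain (5.87), Myom1 of the sarcomere M-band (4.72), Smyd1, a muscle methyltransferase (4.54), and Hrc, a calcium-binding protein of the sarcoplasmic reticulum (3.38). In red-only cells 6 were higher and 1 lower, and in green-only cells 8 were higher and 0 lower. Myh6 averaged 928 in double-positive, 70.7 in red-only, 492 in green-only cells, with 11.5 in double-negative cells. Its difference was -2.77 (adjusted p = 0.000122) in red-only over green-only cells. No Mef2 gene was called in that pair, which does not show equal levels, and a link to Myh6 was not tested.

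Of 11 Nkx2-5 targets tested, 8 were higher and 0 lower in double-positive over double-negative cells (median 0.70). Actc1, cardiac actin, was higher by 5.41, Myocd by 4.03 and Slc8a1, the sodium-calcium exchanger, by 2.97. Ankrd1, a stress-responsive muscle protein, was higher by 2.86, with a wide spread (126 ± 123 in double-positive against 8.88 ± 2.40 in double-negative cells, SD). In red-only cells 5 of the targets and in green-only cells 6 were higher, and 0 were lower in either. Nppb, a natriuretic peptide, was called at 0.49 (adjusted p = 0.0187), a call lost without double-positive array A (0.30, adjusted p = 0.0714) or double-negative array B or C (0.42 and 0.47, adjusted p = 0.0734 and 0.0564). Nppa, atrial natriuretic factor, stayed near the bottom of the scale, at 7.0 in double-positive and 4.56 in double-negative cells (0.34, adjusted p = 0.0511). It passed without the double-positive array of experiment B (0.44, adjusted p = 0.0257) and without green-only array B or C (adjusted p = 0.0351 and 0.0495). Of 5 Isl1 targets tested, 4 were higher and 0 lower in double-positive cells (median 1.47), namely Myocd, which is in both lists, the ligands Bmp4 (2.46) and Bmp7 (1.47), and Fgf10 (0.67), while Fgf8 gave 0.47 (adjusted p = 0.332). The lists were drawn from textbook knowledge with earlier results of these data known, and their direction is not independent evidence.

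Of 15 upstream regulators and partners of the heart fields tested, 7 were higher and 3 lower in double-positive over double-negative cells, with a median of 0.44. Over the 12 fits with 1 array left out, 6 to 7 were higher and 2 to 3 lower, and the median ran from 0.20 to 0.67. Hand2, a basic helix-loop-helix factor of the second heart field, was higher by 3.24, Tbx20 by 2.95, Gata6 by 2.13 and Gata5 by 1.72. The 3 lower genes were Smad1 (35.0 in double-positive against 44.8 in double-negative cells on average), Tbx1 (7.24 against 13.3) and Eya1 (3.76 against 9.24). The Tbx1 call was lost without double-positive array B (-0.56, adjusted p = 0.0596) or double-negative array C (-0.52, adjusted p = 0.0697). Hand2 averaged 218 in double-positive, 224 in red-only, 136 in green-only cells, with 19.3 in double-negative cells. For this list the interaction was called lower in 8 of 15 genes and higher in 0, with a median of -1.19 against 0.03 for all genes tested. For Hand2 it was -2.58 (adjusted p = 0.000387) and for Tbx20 -2.24 (adjusted p = 2.0e-05).

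Marker genes of other cell types moved with the populations as well. The summed intensity of 6 cardiomyocyte markers was 13650 to 17060 in double-positive, 2932 to 4323 in red-only, 6408 to 8568 in green-only cells, with 268 to 364 in double-negative cells, and 6 of 6 were called higher in double-positive over double-negative cells. Of 6 pluripotency markers 5 were lower there, with sums of 101 to 117 in double-positive, 111 to 142 in red-only, 117 to 139 in green-only cells, with 1308 to 1594 in double-negative cells. Of 5 blood markers tested 3 were lower. Of 6 endoderm markers 3 were lower (Cldn6 at -2.90, Foxa2 at -1.47 and Sox17 at -1.04), with sums of 124 to 225 in double-positive, 118 to 243 in red-only, 362 to 1679 in green-only cells, with 584 to 1002 in double-negative cells, and 2 of the 6 were also lower in double-positive over green-only cells. The Sox17 call was lost when double-negative array A was left out (-0.85, adjusted p = 0.0615). Endothelial markers summed to 195 to 281 in double-positive, 511 to 722 in red-only, 270 to 787 in green-only cells, with 123 to 218 in double-negative cells. Most of each sum was Kdr, which averaged 145, 385, 386 and 108 in the same order. Of these 6 markers, 0 were called in double-positive over double-negative cells. In red-only cells 3 were higher, and in green-only cells 3 (3 to 4 and 2 to 5 with 1 array left out). Mef2c is known in endothelium as well. The part of these cell types in the levels of the 5 genes was not tested, and in sorted pools fewer cells of a type and less RNA per cell cannot be told apart.

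Markers of motor and sensory neurons and of skeletal muscle were low on all 12 arrays. The 5 motor and sensory neuron markers on the array, chosen because such neurons express Isl1, summed to 23.7 to 28.0 on all 12 arrays, with Prph the highest single value at 9.57. The 6 skeletal muscle markers, chosen because skeletal muscle uses Mef2 genes, summed to 29.2 to 35.5. The ratio of 3′ to 5′ control probe sets for actin, a measure of RNA integrity, was 1.40 to 1.54 in double-positive, 1.32 to 1.48 in red-only, 1.33 to 1.44 in green-only cells, with 1.34 to 1.36 in double-negative cells. It was higher on all double-positive than on all double-negative arrays, and for Gapdh the populations overlapped.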

How the data were processed

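Gene expression was measured on 12 Affymetrix arrays from 4 sorted populations, 3 arrays each, with biotinylated cRNA made from 5 ug of total RNA per the labels. What the authors deposited is 1 intensity per probe set and array, in linear units (2.09 to 8820). The submitters' processing notes name MAS5 with no version, and the scaling used is not given in the sources used here. The values do not settle the summary method: the lowest value of every array was 2.09 to 2.22, array means were 44.2 to 47.3 and array medians 6.29 to 6.73. Linear levels and folds are in the units as deposited. Groups were taken from the sample titles, because the description of the sort names the double-negative population wrongly. Of 45101 probe sets, 64 controls were left out, 34945 had 1 gene, 932 had several and 9160 had none, and symbols were updated through Entrez identifiers except for 204.

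The tests used log2(intensity + 4.10), where 4.10 is the 25th percentile of the whole table. A mean of at least 3.22 on this scale (the 40th percentile of probe set means) was required, which 13698 genes met. The models were limma's (version 3.58.1, lmFit and eBayes, under R 4.3.3), fitted to all 12 arrays with 1 mean per population and 8 residual degrees of freedom, two-sided, with Benjamini-Hochberg adjustment and a threshold of 0.05, and the fit was tested on simulated data. Plots were made in Python 3.11.15 (matplotlib 3.10.9).

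The members, gene lists, tests and alternatives were chosen with earlier results of these data known. Named were the 5 members, of each list up to 4 genes with the largest difference past the threshold in double-positive over double-negative cells, and the 5 genes with the nearest profile to each member. Other genes named (Akt1 and Rbm24 levels, Ldb1, Mef2b, Hdac4, Nppa, Nppb, Fgf8, Tbx1, Eya1, Smad1, Kdr and Prph) were picked after their values were seen. The experiment letters pair the arrays: deviations from population means correlated at 0.116 to 0.423 in all 18 pairs of arrays that share a letter, against at most 0.0718 otherwise. Alternatives were other pseudocounts (1 and 6.52), quantile normalization, other filters, every probe set on its own, variance trends, only the arrays compared, the experiment as a block, arrays or experiments left out and, chosen after seeing the data, a linear scale for the interaction and list counts and calls with arrays left out.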

Additional observations from a re-analysis of the deposited data

Results flagged for a closer look

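The log2 difference between cells with and without 1 reporter changed with the state of the other reporter for 4 of the 5 genes. This was by limma's interaction test on the log2 scale, for their main probe sets. The reporters mark sorted populations, and an effect of a reporter on these genes was not tested. The interaction was -2.23 for Mef2c (adjusted p = 0.000706), -1.25 for Nkx2-5 (adjusted p = 0.00265), -1.02 for Isl1 (adjusted p = 0.00315) and -0.79 for Mef2a (adjusted p = 0.00987), below 0 in 3 of 3 experiments for each. Of these calls 1 remained (Mef2c) without the arrays of experiment B and 2 (Mef2c and Isl1) without those of experiment C, and 3 of 5 Mef2c and 2 of 6 Mef2a probe sets were called. On the linear scale the same quantity was 12.2 intensity units for Mef2c, 52.0 for Nkx2-5, -50.0 for Isl1 and -26.9 for Mef2a, and of these Isl1 passed the threshold (adjusted p = 0.0051).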

How the results depend on the processing

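All 15 differences of the 5 genes from double-negative cells kept their direction under every alternative run. Their calls held too, except that of Mef2d in red-only cells (0.44), which was lost when all 4 arrays of experiment B or of experiment C were left out (0.41 and 0.45), with a range of 0.37 to 0.51. With the experiment as a block (the pairing of arrays), 1283 genes were called in double-positive over green-only cells and 787 in red-only over green-only cells, and no call of the 5 genes changed. With only the 6 arrays compared these counts were 258 and 200. Quantile normalization brought Mef2d past the threshold in double-positive over green-only cells (0.37, adjusted p = 0.046), and testing every probe set gave 6611 calls in double-positive over double-negative cells, from more features tested. On the linear scale the interaction was 52.0 intensity units for Nkx2-5, 12.2 for Mef2c and 4.91 for Mef2d, with the sign turned from the log2 scale, and -26.9 for Mef2a, no longer past the threshold. With 1 array or 1 whole experiment left out, genes called ranged from 2732 to 4578 in double-positive, 1767 to 3589 in red-only and 1296 to 3174 in green-only over double-negative cells, 615 to 1960 in double-positive over red-only, 187 to 777 in double-positive over green-only and 51 to 475 in red-only over green-only cells, and 253 to 1703 for the interaction. Over the same fits Mef2c ranged from 0.81 to 1.08 in double-positive over red-only, 0.79 to 1.203 in double-positive over green-only and -0.17 to 0.24 in red-only over green-only cells. Nkx2-5 ranged from 0.70 to 0.94 in double-positive over green-only and -0.64 to -0.33 in red-only over green-only cells, and in double-positive over green-only cells Isl1 ranged from -0.024 to 0.26 and Mef2a from -0.0067 to 0.35. The interaction ranged from -1.47 to -1.09 for Nkx2-5, -1.24 to -0.87 for Isl1, -0.93 to -0.68 for Mef2a and -0.26 to 0.031 for Mef2d. Its call was lost without experiment B for Nkx2-5 (-1.18), Isl1 (-0.95) and Mef2a (-0.77), and without experiment C for Nkx2-5 (-1.11) and Mef2a (-0.68), and held for Mef2c in each. Fits without an experiment have fewer arrays, and other causes of these changes were not tested. Detection calls were not used here, so signal over background is unknown for low probe sets, such as 4 of the 6 of Mef2a, whose means were 8.03 to 10.3.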

Other observations

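Probe sets of 1 gene differed in how the double-positive array of experiment A stood among the 3 double-positive arrays. The main sets of Mef2a (108.7) and Mef2d (117) were highest there, but the second Mef2a set (1452347_at), of similar brightness, was lowest there, at 75.7 in experiment A and 88.8 and 88.5 in B and C, and the Mef2d set 1437300_at was at 44.4 in A, between 45.9 in B and 43.3 in C. The main Mef2c probe set was lowest in experiment A in all 4 populations, at 439 in double-positive, 189 in red-only, 166 in green-only cells, with 13.9 in double-negative cells. The same held for 1421028_a_at and 1424852_at, but not for 1451506_at, whose double-negative array of experiment A (31.3) was the highest of the 3, nor for 1451507_at, whose double-positive array of experiment A (45.9) lay between the others.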
